A study of Mus musculus with 8 samples.

Results

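Of the 54429 rows in the deposited table of gene expression, 38 carry the symbols listed for transforming growth factor beta (TGF-beta), activin and bone morphogenetic protein (BMP) signalling, and all 38 listed symbols were found. They comprise 12 ligands, 10 receptors, 8 SMADs, 5 antagonists or follistatin-like proteins and 3 corepressors. The members were chosen by name and not by their values. RNA was sequenced from both ventricles of C57BL/6 mice at postnatal day 35. All animals carried loxP sites in the genes of the estrogen-related receptors alpha and gamma, the controls included. An adeno-associated virus (AAV) had been injected on postnatal day 0 to 1. In the group labelled AAV-Cre it carried Cre recombinase driven by the cardiomyocyte promoter of cardiac troponin T, and in the group labelled AAV-Luc it carried luciferase. Each group held 4 libraries. The other cells of the ventricle were not targeted by that promoter but contributed RNA to the same libraries. The comparison asks how expression differs after birth when both receptors are targeted in heart muscle.

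Ligands of this family are secreted dimers. They bring together type II and type I serine/threonine kinase receptors, and the type I receptor phosphorylates receptor-regulated SMAD proteins. TGF-beta and activin signal mainly through SMAD2 and SMAD3, BMPs through SMAD1, SMAD5 and SMAD9, and both branches share SMAD4. In the heart, TGF-beta signalling is best known for activating fibroblasts and matrix production, and BMP signalling for its part in heart development.

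Values are in RPKM, reads scaled by gene length and by the reads of the library. The steps between low values implied 48190000 to 61200000 reads a library. Of the targeted genes, Esrra measured 39.1 ± 4.66 RPKM in AAV-Cre and 45.1 ± 3.66 in AAV-Luc, and Esrrg 217.9 ± 17.7 and 112.7 ± 5.51 (SD, n = 4 each). RPKM summed over a whole gene does not show whether floxed exons were lost. Cardiomyocyte markers such as Myh6 and Tnnt2 were abundant in all 8 libraries. Library numbers follow the order of columns. Whether each library stems from its own mouse is not stated, so the p-values rest on the spread between libraries, which may be partly technical. The whole distribution was shifted, with a median log2 fold change of 0.41 over the 16385 genes tested, on the scale of log2(RPKM + 0.5). Members that were tested are therefore given as deposited and after centring every library on its median gene. As deposited, Esrrg was higher by 0.95 on the log2 scale (limma adjusted p = 5.32e-06) and Esrra, at -0.21, did not pass (adjusted p = 0.0705). After centring Esrra was lower, at -0.62 (adjusted p = 0.000549), and Esrrg was higher, at 0.54 (adjusted p = 0.000317). Whether the higher Esrrg goes with or against the label AAV-Cre cannot be read from RPKM over a whole gene. The names used here are labels only. A gene is said to have risen or fallen where its RPKM as deposited differed at a limma adjusted p below 0.05 over all genes tested.

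Most genes of the pathway were higher in the libraries labelled AAV-Cre, and a few stood far above the general shift. Tgfb3 was 6.95 times as high, Fstl3 6.14 times, Tgfb2 3.95 times and Fstl1 2.94 times. Of the 38 genes, 29 reached 1 RPKM in at least 4 libraries and were tested. Of these 24 rose, where 64.4% of all genes tested rose. None fell, where 8.87% of all genes fell, and none was lower at an unadjusted p of 0.05 either. Their median log2 fold change was 0.71. After centring, 14 were higher, where 21.8% of all genes were, 3 were lower, where 24.1% were, and the median was 0.30. The groups did not overlap in 25 of the 29, all higher in AAV-Cre, against 58.4% of all genes, and none was lower without overlap, against 7.67%. Bmp7 and Inhba lay below 1 RPKM in all 4 AAV-Luc libraries and passed the filter only through AAV-Cre, so their rise was partly fixed by the filter. In whole ventricle, more cells of a type and more RNA per cell cannot be told apart.

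**Figure D1:**
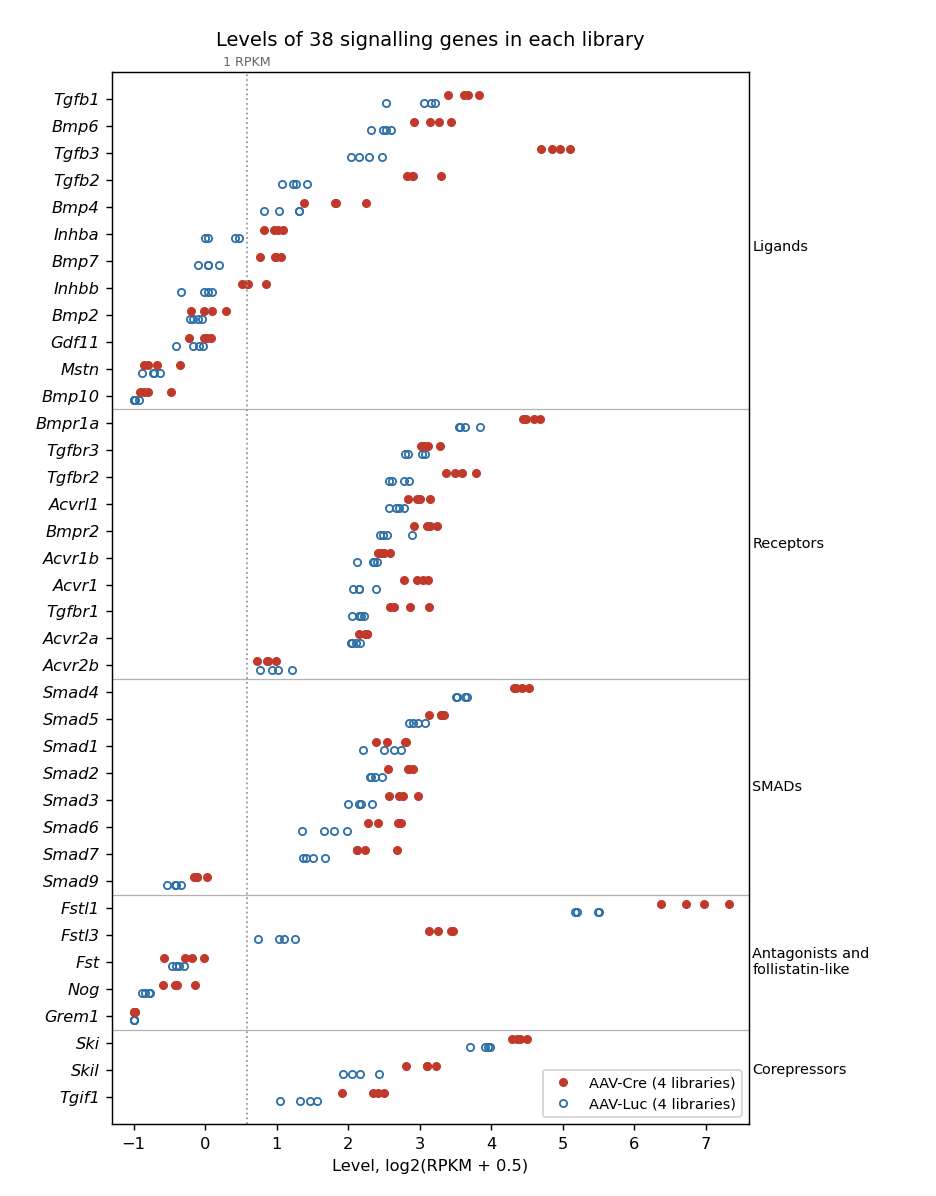
Level of each of the 38 genes as log2(RPKM + 0.5), 1 point per library, with 4 AAV-Cre libraries (filled) and 4 AAV-Luc libraries (open), grouped by role and ordered by the AAV-Luc mean. The dotted line marks 1 RPKM. The widest gaps between the groups are those of Tgfb3, Fstl3, Tgfb2 and Fstl1, and 9 genes lie at or near the dotted line or below it and were not tested.

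The ligands were led by the TGF-beta isoforms. Tgfb3 encodes a TGF-beta isoform that is secreted, like the others, in a latent form. Tgfb3 measured 30.5, 28.2, 25.5 and 33.7 RPKM in AAV-Cre libraries 1 to 4, and 5.07, 3.95, 3.59 and 4.37 RPKM in AAV-Luc libraries 1 to 4. Every AAV-Cre value lay far above every AAV-Luc value, and library 3 was the lowest of each group. The means were 29.5 ± 3.47 and 4.24 ± 0.635 RPKM (SD, n = 4 each). The log2 fold change was 2.66 (limma adjusted p = 2.37e-07, SE 0.11), and 2.25 after centring (adjusted p = 4.92e-07). Only 0.623% of all genes tested had a larger fold change. Tgfb3 lies on chromosome 12 from 86056745 to 86079041 of mm10, on the minus strand. Transcripts annotated on the opposite strand share 12.4% of its exon bases. It has a single annotated transcript, and its RPKM corresponded to 4489 to 6748 reads in AAV-Cre and 644 to 1049 in AAV-Luc.

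Tgfb2, on chromosome 1 from 186622792 to 186705989, encodes the isoform that binds its receptors poorly without the coreceptor betaglycan. It measured 6.99, 6.91, 6.53 and 9.35 RPKM in AAV-Cre libraries 1 to 4, and 2.17, 1.84, 1.60 and 1.92 RPKM in AAV-Luc. Library 4 was the highest of AAV-Cre, and the groups were far apart. The log2 fold change was 1.73 (limma adjusted p = 3.63e-06, SE 0.12), and 1.32 after centring. Tgfb1, on chromosome 7 from 25687002 to 25705077, encodes the isoform most studied in fibrosis. Its values were 9.98, 12.2, 11.7 and 13.6 RPKM in AAV-Cre and 8.81, 8.42, 5.29 and 7.87 RPKM in AAV-Luc. The groups did not overlap, but the nearest values were close. Tgfb1 rose by a log2 fold change of 0.63 (limma adjusted p = 0.0044), and its 0.22 after centring did not pass (adjusted p = 0.195).

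The isoforms therefore changed order. In AAV-Luc, Tgfb1 was the most abundant in every library, and in AAV-Cre Tgfb3 was. Tgfb3 made up 64.3, 59.6, 58.3 and 59.4% of the summed RPKM of the 3 isoforms in AAV-Cre libraries 1 to 4, and 31.6, 27.8, 34.2 and 30.9% in AAV-Luc. This share does not depend on how a library is scaled. Its means were 60.4 ± 2.65% and 31.1 ± 2.64% (SD, n = 4 each), and the groups did not overlap (two-sided exact permutation p = 0.0286, and 0.0429 adjusted over 6 ratios). With 4 libraries a group, no smaller p is possible. The share of Tgfb1 was 24.4 ± 2.53% in AAV-Cre and 55.0 ± 3.59% in AAV-Luc, and that of Tgfb2 15.2 ± 0.886% and 13.8 ± 1.01%. The sum of the 3 isoforms was 48.8 ± 5.51 RPKM in AAV-Cre and 13.7 ± 2.33 RPKM in AAV-Luc.

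**Figure D2:**
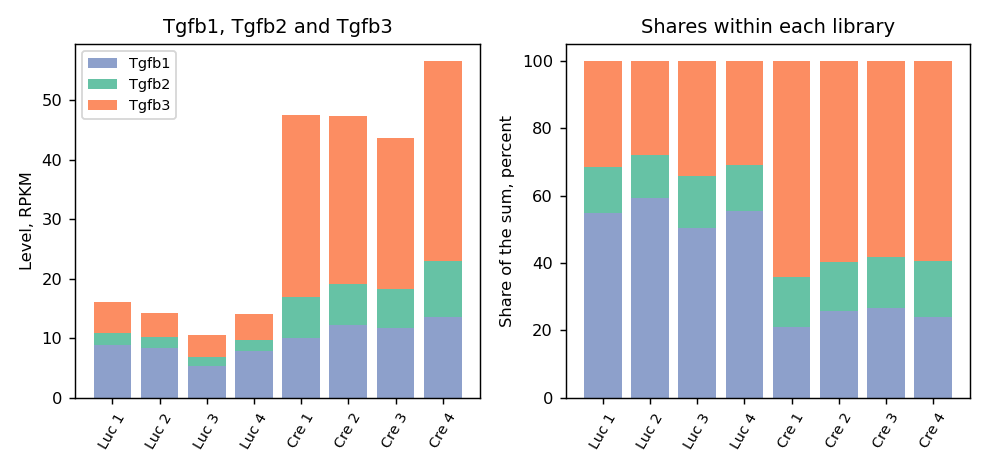
Stacked levels of Tgfb1, Tgfb2 and Tgfb3 in RPKM (left) and as percent of their sum (right), 1 bar per library. Tgfb3 takes 58.3 to 64.3% of the sum in the 4 AAV-Cre libraries and 27.8 to 34.2% in the 4 AAV-Luc libraries.

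Among the BMP ligands, Bmp6, whose known role is in iron regulation through hepcidin, measured 7.10, 10.3, 8.30 and 9.16 RPKM in AAV-Cre and 5.24, 5.53, 4.51 and 5.12 RPKM in AAV-Luc. The groups did not overlap, and Bmp6 rose by 0.71 on the log2 scale (limma adjusted p = 0.00036, SE 0.11), or 0.30 after centring (adjusted p = 0.0315). Txndc5, on the opposite strand, shares 5.74% of its exon bases. Bmp7, known for its role in kidney and eye development, measured 1.19, 1.49, 1.46 and 1.59 RPKM in AAV-Cre and 0.529, 0.642, 0.530 and 0.428 RPKM in AAV-Luc. All AAV-Cre values were above all AAV-Luc values. The log2 fold change was 0.90 (limma adjusted p = 0.000101), and 0.50 after centring (adjusted p = 0.00534). Bmp4, a ligand of mesoderm and heart development, rose from 1.69 ± 0.353 to 3.10 ± 0.881 RPKM (SD, n = 4 each). Its log2 fold change of 0.70 (limma adjusted p = 0.00681) became 0.29 after centring and did not pass (adjusted p = 0.222).

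Bmp10, which in adult mice is made in the atrium, was near its limit of detection in these ventricles. The reads implied by its RPKM were 14, 8, 18 and 58 in AAV-Cre libraries 1 to 4, and 2, 0, 0 and 6 in AAV-Luc. Library 4 held most of the AAV-Cre reads, and the groups did not overlap (two-sided exact permutation p = 0.0286, not adjusted for the other low members compared). That p was 0.0571 without AAV-Luc library 1 or 4 and 0.0857 without AAV-Luc library 2 or 3. Myl7, a marker of atrial muscle, measured 52.8, 41.7, 112.9 and 49.7 RPKM in AAV-Cre and 9.88, 26.2, 2.95 and 6.16 RPKM in AAV-Luc. The library with most Myl7 was not the library with most Bmp10 in either group. The sum of 6 atrial markers, mostly Nppa in AAV-Cre, was highest in AAV-Cre library 4, the library with most Bmp10 reads. Nppa and Pam were highest in that library, and Myl7, Myl4, Sln and Dkk3 in AAV-Cre library 3. Within AAV-Luc the sum was lowest in library 4, the library with most Bmp10 reads of that group. Whether atrial tissue had a part in Bmp10 was not tested. Bmp2, a ligand of valve development, measured 0.369 to 0.718 RPKM in AAV-Cre and 0.361 to 0.465 RPKM in AAV-Luc, and the groups overlapped (exact permutation p = 0.143).

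Of the activin subunits, Inhba measured 1.47 ± 0.154 RPKM in AAV-Cre and 0.687 ± 0.202 in AAV-Luc (SD, n = 4 each). It rose by 0.74 on the log2 scale (limma adjusted p = 0.00104), and its 0.33 after centring did not pass (adjusted p = 0.0942). Inhbb was too low for the fit. It measured 0.932, 0.993, 1.3 and 1.02 RPKM in AAV-Cre and 0.528, 0.563, 0.492 and 0.290 RPKM in AAV-Luc, with no overlap (two-sided exact permutation p = 0.0286, not adjusted). The mean RPKM was 2.13 times as high in AAV-Cre for Inhba and 2.27 times for Inhbb. Mstn, encoding myostatin, a brake on skeletal muscle growth, stayed at 0.0497 to 0.283 RPKM in AAV-Cre and 0.0391 to 0.145 RPKM in AAV-Luc (exact permutation p = 0.686). Its close relative Gdf11 measured 0.353 to 0.559 and 0.249 to 0.482 RPKM (exact permutation p = 0.257). The groups overlapped for both, and no difference was detected.

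The median log2 fold change of the receptors was 0.41, equal to that of all genes, and that of the tested ligands 0.74. Only 7 of the 12 ligands were tested, and Bmp7 and Inhba passed the filter only through AAV-Cre. The median of the ligands was thus partly fixed by the filter, and its difference from that of the receptors was not tested. All 10 receptors were tested. As deposited 6 rose, near the 64.4% of all genes that rose. None fell (also at an unadjusted p of 0.05), where 8.87% of all genes fell. After centring 3 were higher and 3 lower, near the 21.8% and 24.1% of all genes that were, with a median of 0.00. The 3 lower ones were activin receptors. Bmpr1a, a type I BMP receptor, measured 21.9, 23.7, 21.3 and 25.2 RPKM in AAV-Cre and 12, 11.3, 13.9 and 11.2 RPKM in AAV-Luc. It was the most abundant receptor in all 8 libraries, and the groups were well apart. Its log2 fold change was 0.90 (limma adjusted p = 1.9e-05, SE 0.09), and 0.50 after centring (adjusted p = 0.00253).

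Tgfbr2, the type II receptor that binds TGF-beta, measured 9.81, 13.3, 10.7 and 11.5 RPKM in AAV-Cre and 6.69, 5.42, 5.60 and 6.37 RPKM in AAV-Luc. Its groups did not overlap, and it rose by 0.85 on the log2 scale (limma adjusted p = 7.4e-05, SE 0.10), or 0.45 after centring. Acvr1, a type I receptor of BMPs also called ALK2, measured 6.38, 7.76, 7.27 and 8.14 RPKM in AAV-Cre and 4.72, 3.70, 3.95 and 3.95 RPKM in AAV-Luc. Every AAV-Cre library was higher, with a log2 fold change of 0.78 (limma adjusted p = 8.6e-05), or 0.37 after centring. Tgfbr1, the type I TGF-beta receptor, Bmpr2, the type II BMP receptor, and Acvrl1, an endothelial type I receptor, rose by 0.65, 0.51 and 0.31 on the log2 scale (limma adjusted p = 0.00085, 0.00251 and 0.00826). None of the 3 passed after centring, where their values were 0.24, 0.10 and -0.10. Tgfbr3, encoding betaglycan, did not pass either way, at 8.20 ± 0.710 RPKM in AAV-Cre and 7.17 ± 0.716 in AAV-Luc (SD, n = 4 each).

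Acvr2b, a type II receptor of activin and myostatin, measured 1.32, 1.49, 1.16 and 1.34 RPKM in AAV-Cre and 1.41, 1.53, 1.81 and 1.2 RPKM in AAV-Luc. The groups overlapped, and the log2 fold change of -0.12 did not pass (limma adjusted p = 0.382). Relative to the median gene it was lower, at -0.53 (adjusted p = 0.00732). Acvr2a, the other type II activin receptor, measured 4.30, 4.31, 3.94 and 4.22 RPKM in AAV-Cre and 4.0, 3.63, 3.82 and 3.62 RPKM in AAV-Luc. These groups overlapped only at their edges. The log2 fold change of 0.14 did not pass (adjusted p = 0.102), and after centring Acvr2a was lower, at -0.27 (adjusted p = 0.0119). Orc4, on the opposite strand, shares 7.84% of its exon bases. The type I activin receptor Acvr1b measured 4.81, 4.97, 5.48 and 5.13 RPKM in AAV-Cre and 4.62, 4.80, 3.86 and 4.56 RPKM in AAV-Luc. Its AAV-Cre values all lay just above the AAV-Luc values, while after centring it was lower, at -0.23 (adjusted p = 0.0231). The direction of Acvr2a and Acvr1b thus depends on the scaling, and RPKM alone does not settle it.

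**Figure D3:**
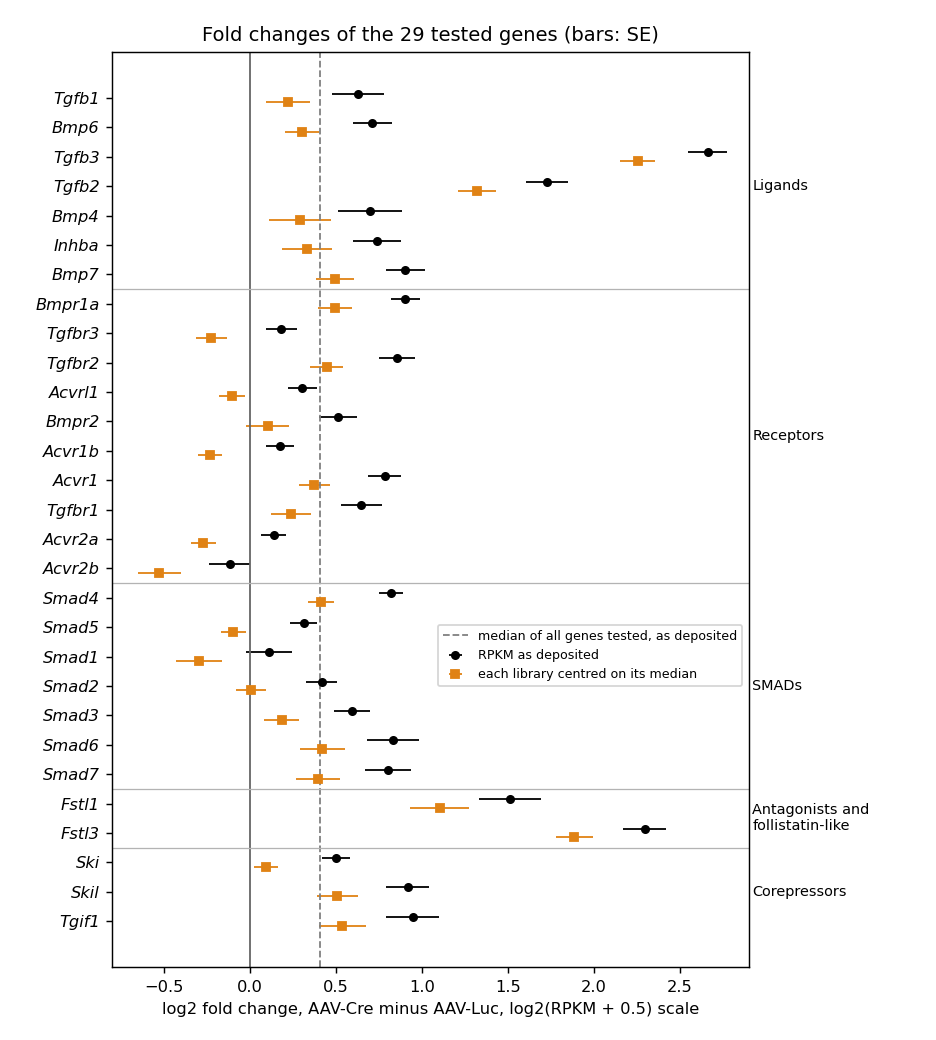
log2 fold change of the 29 tested genes, AAV-Cre minus AAV-Luc, as deposited (circles) and after centring each library on its median (squares), with the standard error as bars. The dashed line is the median of all genes tested, 0.41. Tgfb3, Fstl3, Tgfb2 and Fstl1 lie to the right of it on both scales, and Acvr2b is below 0 on both.

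Of the 8 SMADs, 7 were tested and 6 of them rose, where 64.4% of all genes tested did. After centring 3 were higher, where 21.8% of all genes were. Smad4, the SMAD shared by both branches, was the most abundant, at 22.5, 19.7, 19.4 and 21.1 RPKM in AAV-Cre and 12.2, 10.9, 11.9 and 11 RPKM in AAV-Luc. The groups were well separated and tight, and the log2 fold change was 0.82 (limma adjusted p = 1.13e-05, SE 0.07), or 0.41 after centring (adjusted p = 0.00189). The inhibitory SMADs were the other 2. Smad7, which blocks the type I receptors and is itself induced by TGF-beta, measured 3.85, 4.22, 3.86 and 5.90 RPKM in AAV-Cre and 2.70, 2.07, 2.14 and 2.35 RPKM in AAV-Luc. Library 4 was the highest of AAV-Cre, and the groups did not overlap. Smad7 rose by 0.80 (limma adjusted p = 0.000524, SE 0.14), or 0.39 after centring (adjusted p = 0.0298). Smad6, which acts mainly on the BMP branch, measured 4.32, 5.94, 4.84 and 6.17 RPKM in AAV-Cre and 3.45, 2.99, 2.05 and 2.65 RPKM in AAV-Luc. It too was higher in every AAV-Cre library, by 0.83 on the log2 scale (limma adjusted p = 0.000856, SE 0.15), or 0.42 after centring (adjusted p = 0.0247).

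None of the 4 receptor-regulated SMADs tested passed after centring. Smad2 and Smad3, of the TGF-beta branch, rose by 0.42 and 0.59 (limma adjusted p = 0.0025 and 0.00066). Smad5, of the BMP branch, rose by 0.31 (adjusted p = 0.00473). After centring these were at 0.01, 0.18 and -0.10. Smad1 measured 5.74 ± 0.851 RPKM in AAV-Cre and 5.28 ± 0.877 in AAV-Luc (SD, n = 4 each) and did not pass on either scale. Smad9 was low, at 0.394 to 0.513 RPKM in AAV-Cre and 0.191 to 0.289 RPKM in AAV-Luc, without overlap (two-sided exact permutation p = 0.0286, not adjusted). Its difference in log2(RPKM + 0.5), which understates changes of low genes, was 0.33, beside a median of 0.41 over all genes tested.

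The follistatin-like genes showed the other large rises. Fstl3, on chromosome 10 from 79777272 to 79782630, encodes a secreted protein that binds and neutralises activin and myostatin. It measured 8.23, 9.06, 10.3 and 10.5 RPKM in AAV-Cre libraries 1 to 4, and 1.64, 1.88, 1.16 and 1.54 RPKM in AAV-Luc. All AAV-Cre values were several times those of AAV-Luc. The log2 fold change was 2.30 (limma adjusted p = 8.52e-07, SE 0.12), and 1.89 after centring (adjusted p = 1.39e-06). The protease gene Prss57, on the opposite strand, shares 47.3% of the exon bases of Fstl3. The RPKM of Prss57 was 0.391 to 0.482 times that of Fstl3 in all 8 libraries, so reads of the 2 genes cannot be told apart unless the counting used strand, which is not stated.

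Fstl1, on chromosome 16 from 37776873 to 37836514, encodes a secreted glycoprotein of mesenchymal cells and epicardium. It was the most abundant of the 38 genes in all 8 libraries, at 105, 125, 82.4 and 160.2 RPKM in AAV-Cre and 45.0, 35.4, 36.1 and 44.4 RPKM in AAV-Luc. AAV-Cre library 4 was the highest, as for Tgfb2, Smad7 and many other members, and the groups did not overlap. Fstl1 rose by 1.51 on the log2 scale (limma adjusted p = 7.21e-05, SE 0.18), or 1.1 after centring (adjusted p = 0.000652). Follistatin itself, Fst, was low, at 0.171 to 0.487 RPKM in AAV-Cre and 0.224 to 0.311 RPKM in AAV-Luc, and the groups overlapped (exact permutation p = 0.343). The BMP antagonist noggin, Nog, corresponded to 24, 16, 36 and 26 reads in AAV-Cre and 6, 7, 8 and 4 reads in AAV-Luc. Its groups did not overlap (two-sided exact permutation p = 0.0286, not adjusted), and the mean RPKM was 4.06 times as high in AAV-Cre. The exact permutation p was 0.0571 whichever AAV-Luc library was left out. The antagonist gremlin, Grem1, was listed at 0 in 6 libraries and at 2 reads in each of AAV-Cre libraries 2 and 4.

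All 3 corepressors, which hold SMAD-bound genes in check, rose, where 64.4% of all genes tested did. After centring 2 were higher, where 21.8% of all genes were. Skil, encoding SnoN, a known target as well as an inhibitor of TGF-beta signalling, measured 8.09, 8.07, 6.53 and 8.83 RPKM in AAV-Cre and 4.86, 3.64, 3.99 and 3.31 RPKM in AAV-Luc. The groups did not overlap, and the log2 fold change was 0.92 (limma adjusted p = 0.000134, SE 0.12), or 0.51 after centring (adjusted p = 0.0063). Tgif1, a homeodomain corepressor of SMAD2, measured 3.27, 5.16, 4.59 and 4.83 RPKM in AAV-Cre and 2.44, 2.02, 1.55 and 2.27 RPKM in AAV-Luc. AAV-Cre library 1 was the nearest to the controls. Tgif1 rose by 0.95 (limma adjusted p = 0.000401, SE 0.15), or 0.54 after centring (adjusted p = 0.00999). Ski, the founding member of the family of SnoN, rose from 14.3 ± 1.29 to 20.4 ± 1.3 RPKM (SD, n = 4 each), by 0.50 (adjusted p = 0.000399), but was at 0.09 after centring and did not pass.

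The sequences before the start sites of Tgfb2 and Fstl3 are shown because these genes had the largest fold changes among tested members with a promoter window in RefSeq (GRCm38.p6, the mm10 assembly). Windows of 250 bases before the annotated start were found for 27 of the 38 genes, 34 windows in all. The Tgfb2 window is chr1:186705990-186706239 on the minus strand, and that of Fstl3 is chr10:79777024-79777273 on the plus strand. Both run 5′ to 3′, and capitals mark matches on either strand to TATAAA, to the core SMAD element CAGAC or, in Tgfb2, to the E-box CACGTG.
Tgfb2: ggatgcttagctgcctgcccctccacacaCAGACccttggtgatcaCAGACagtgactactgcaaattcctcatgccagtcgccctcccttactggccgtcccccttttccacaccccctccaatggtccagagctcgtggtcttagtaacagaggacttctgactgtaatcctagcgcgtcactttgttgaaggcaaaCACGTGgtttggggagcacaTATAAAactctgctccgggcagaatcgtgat
Fstl3: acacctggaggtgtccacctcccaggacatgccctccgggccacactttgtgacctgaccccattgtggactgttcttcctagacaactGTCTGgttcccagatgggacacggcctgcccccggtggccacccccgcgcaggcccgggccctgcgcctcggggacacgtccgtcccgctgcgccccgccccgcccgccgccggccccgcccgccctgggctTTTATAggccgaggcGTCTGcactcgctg
The TATAAA match began at position -31 from the start in Tgfb2 and at -29 in Fstl3, where it lay on the other strand. TATAAA was found in 14.7% of the 34 windows and in 12.4% of all 32851 windows of the same length. CAGAC was found in 38.2% and 42.2%, and CACGTG in 11.8% and 6.02%. The element TNAAGGTCA, which estrogen-related receptors bind, was in none of the 34 windows and in 1.14% of all windows. Its core AAGGTCA was in 2.94% of the 34, which is a single window of Tgif1, and in 4.08% of all. Neither TGACGTCA, the cyclic AMP element, nor GGAATG, the TEAD element, nor the SMAD palindrome GTCTAGAC matched any of the 34 windows, against 1.55%, 12.6% and 0.167% of all. A match is a match of letters only, and these windows hold no distal elements.

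Ratios between members within a library do not depend on its scaling, and 6 were compared. The ratio of the activin and myostatin binders Fst and Fstl3 to the ligands Inhba, Inhbb, Mstn and Gdf11 was, on the log2 scale, 1.61, 1.51, 1.65 and 1.83 in AAV-Cre libraries 1 to 4. It was 0.25, 0.19, -0.29 and 0.43 in AAV-Luc. The groups were far apart, with a difference of 1.51 (two-sided exact permutation p = 0.0286, adjusted p = 0.0429). As Fst was low, this ratio follows Fstl3, with the overlap by Prss57 given above.

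The ratio of the inhibitory Smad6 and Smad7 to the receptor-regulated Smad1, Smad2, Smad3, Smad5 and Smad9 was -1.83, -1.52, -1.59 and -1.19 on the log2 scale in AAV-Cre, and -1.92, -1.99, -2.29 and -2.12 in AAV-Luc. The groups did not overlap, but AAV-Cre library 1 was close to AAV-Luc. The difference was 0.55 (exact permutation p = 0.0286, adjusted p = 0.0429). It did not pass whichever AAV-Luc library was left out, and was 0.60, 0.58, 0.48 and 0.54 without libraries 1 to 4 (adjusted p 0.0686 to 0.0857).

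The ratio of the BMP receptors Bmpr1a to Bmpr2 was 1.44 to 1.60 on the log2 scale in AAV-Cre and 1.01 to 1.19 in AAV-Luc. Bmpr1a was thus further above Bmpr2 in every AAV-Cre library, by 0.38 (exact permutation p = 0.0286, adjusted p = 0.0429). Acvr2a to Acvr2b differed by 0.31 (exact permutation p = 0.0571, adjusted p = 0.0686), and Tgfbr1 to Tgfbr2 by -0.19 (exact permutation p = 0.171, adjusted p = 0.171). Neither passed, and their groups overlapped, but Acvr2a to Acvr2b passed without AAV-Luc library 4, at 0.39 (adjusted p = 0.0429). For the Tgfb3 share, the follistatin ratio and Bmpr1a to Bmpr2, the groups stayed apart without AAV-Luc library 1, 2 or 3 (exact permutation p = 0.0286). The adjusted p was then 0.0571 and did not pass.

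**Figure D4:**
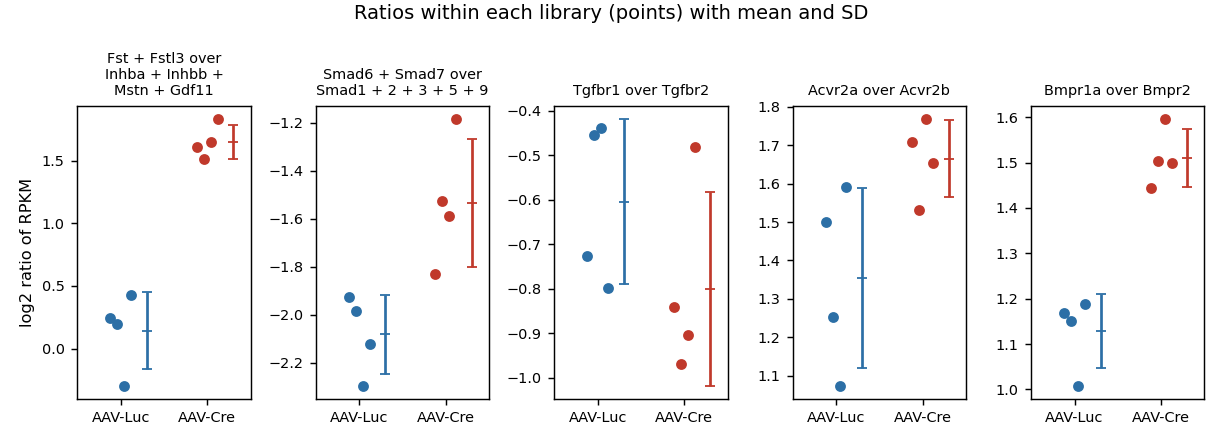
log2 ratios of RPKM within each library, 4 AAV-Luc and 4 AAV-Cre libraries per panel, with the mean and SD beside the points. The groups are apart in the first 2 panels and in the last, and overlap for Tgfbr1 over Tgfbr2 and for Acvr2a over Acvr2b.

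A further 100 genes of the pathway were listed, of which 68 were tested. Of these 55 rose and 3 fell, where 64.4% and 8.87% of all genes did. After centring 34 were higher and 7 lower, where 21.8% and 24.1% of all genes were. Of the 17 known targets of TGF-beta, 16 were tested and all 16 rose and were higher after centring, with a median of 1.26 as deposited and 0.86 after centring. Pmepa1, which restrains SMAD signalling, rose from 6.10 ± 0.613 to 15.2 ± 2.42 RPKM (SD, n = 4 each), and Ctgf had a log2 fold change of 2.79. Acta2, smooth muscle actin, had one of 3.25, although reads of the near-identical actin genes may be shared. Many of these targets are matrix genes whose rise was known from earlier work on these data when the list was made, so the count is no independent evidence of direction. Of the known targets of BMP, 7 of 10 were tested, 4 rose and none fell, also at an unadjusted p of 0.05, and 2 were higher after centring, with a median of 0.43 as deposited and 0.02 after centring. Tbx20 and Id2, both transcriptional regulators, had log2 fold changes of 0.94 and 1.31 and were higher on both scales. Id3 rose by 0.43, at 0.02 after centring. Id1, a direct BMP target, did not pass, at 22.4 ± 4.56 RPKM in AAV-Cre and 18.2 ± 3.90 RPKM in AAV-Luc. The difference between the TGF-beta and the BMP target lists was not tested.

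Genes that hold TGF-beta latent or release it were also mixed. Of 14 tested of 16, 11 rose and 2 fell, where 64.4% and 8.87% of all genes did. After centring 7 were higher and 2 lower, where 21.8% and 24.1% of all genes were. Thbs1, encoding thrombospondin, an activator of latent TGF-beta, rose from 2.95 ± 0.570 to 11.7 ± 1.36 RPKM (limma adjusted p = 3.56e-06). The latent binding protein genes Ltbp2 and Ltbp3 rose by 3.12 and 1.07, and Ltbp1 fell from 7.91 ± 0.372 to 6.98 ± 0.158 RPKM (adjusted p = 0.0323). Itgb6, an integrin subunit that activates latent TGF-beta, fell from 3.52 ± 0.533 to 2.46 ± 0.819 RPKM (adjusted p = 0.0439). These 2 calls rest on all 8 libraries: 1 gene of the list fell whichever AAV-Cre library was left out, or without AAV-Luc library 3 or 4, and 0 without AAV-Luc library 1 or 2 or without the libraries of most Myl7. After centring Ltbp1 was at -0.58 and Itgb6 at -0.88, and both passed. Ltbp2 and Pcsk5 passed the filter only through AAV-Cre, and the count of rises was 7 without AAV-Cre library 2, 3 or 4. Among other ligands 4 of 18 were tested and 3 rose, where 64.4% of all genes did. Gdf15, a stress-induced member of the family, measured 13.3, 12.6, 18.3 and 11.3 RPKM in AAV-Cre and 0.548, 0.495, 0.590 and 0.365 RPKM in AAV-Luc. It and Gdf6 passed the filter only through AAV-Cre, and the count of rises was 1 whichever AAV-Cre library was left out. Their log2 fold changes were 3.83 and 1.91. That of Bmp8b was 0.40, and -0.0062 after centring, which did not pass.

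Of 6 other antagonists tested of 14, all 6 rose, where 64.4% of all genes did, and 4 were higher after centring, where 21.8% were. Fstl4 measured 9.97 ± 1.19 RPKM in AAV-Cre and 0.774 ± 0.168 in AAV-Luc. Fstl4, Sost and Wfikkn2 passed the filter only through AAV-Cre, so their rises were partly fixed by it, and the list's count of rises was 3 whichever AAV-Cre library was left out. The BMP binders Nbl1 and Twsg1 rose by 1.03 and 0.50, and after centring Nbl1 was at 0.62 and Twsg1 at 0.089, which did not pass. Of 6 other receptors and coreceptors tested of 10, 3 rose and 1 fell, with 1 higher and 1 lower after centring. The decoy receptor gene Bambi rose by 0.76, or 0.35 after centring. Eng and Rgma, both coreceptors, rose by 0.54 and 0.55, but were at 0.14 each after centring and did not pass. Hfe2, encoding the BMP coreceptor hemojuvelin, which in muscle is abundant, fell from 62.2 ± 7.33 to 46.0 ± 5.07 RPKM (limma adjusted p = 0.00483). Of the 15 intracellular regulators, 12 rose and none fell, also at an unadjusted p of 0.05, where 64.4% and 8.87% of all genes did. After centring 2 were higher and 4 lower, where 21.8% and 24.1% of all genes were, with a median of -0.06. Wwp2, Map3k7 and Smurf2, encoding a ubiquitin ligase, the kinase TAK1 and another ubiquitin ligase, rose by 0.70, 0.62 and 0.56. After centring Wwp2 was at 0.29 and passed, while Map3k7 at 0.21 and Smurf2 at 0.15 did not.

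**Figure D5:**
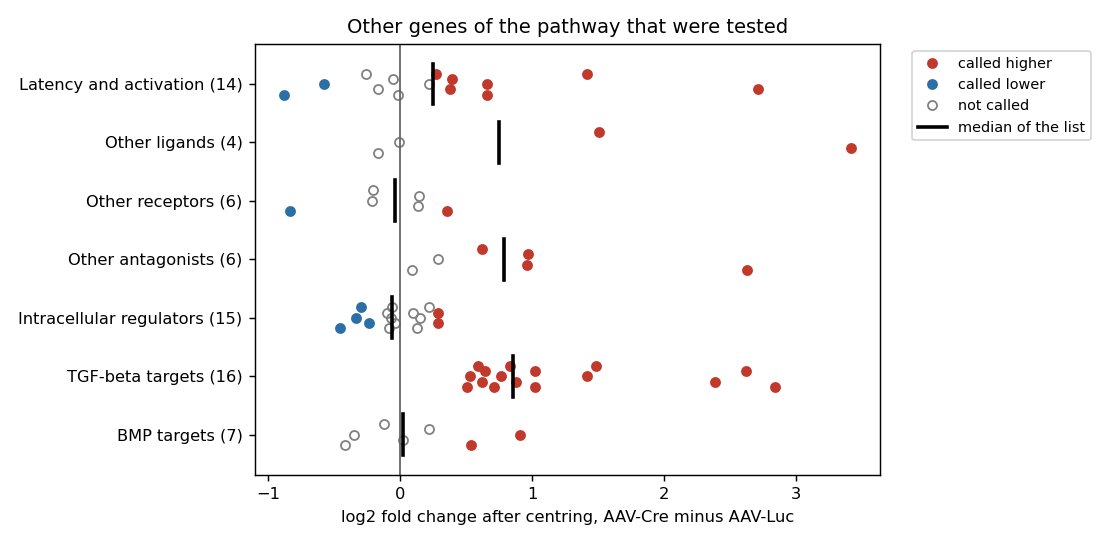
log2 fold change after centring, AAV-Cre minus AAV-Luc, of the other pathway genes tested, 1 point per gene, by list with the number tested in brackets. Bars mark the list medians, from 0.86 for TGF-beta targets to -0.06 for intracellular regulators, beside 0 for the median gene.

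Markers of other cells differed between the groups beside these results. As deposited, 64.4% of all genes tested rose and 8.87% fell, and after centring 21.8% were higher and 24.1% lower. All 10 fibroblast markers rose, with a summed level of 1484 to 2322 RPKM in AAV-Cre and 619 to 711 in AAV-Luc. All 10 macrophage markers rose, with sums of 356 to 473 and 178 to 191 RPKM. Smooth muscle and pericyte markers were uneven, with 6 of 10 higher and 2 lower, and their sums were 1512 to 1875 RPKM in AAV-Cre, mostly Acta2, and 327 to 444 RPKM in AAV-Luc, where Rgs5 was of a like level. Acta2 and Tagln of that list, and Col1a1 and Col1a2 of the fibroblast list, are also among the TGF-beta targets above. Of the 10 endothelial markers 2 rose and none fell (1 at an unadjusted p of 0.05), and 7 were lower after centring, with overlapping sums of 495 to 585 and 388 to 541 RPKM. The 6 atrial markers all rose, with sums of 6740 to 12547 RPKM in AAV-Cre, mostly Nppa, and 675 to 838 RPKM in AAV-Luc, mostly Pam. Of the 8 cardiomyocyte markers 3 rose and 3 fell, and after centring none was higher and 5 were lower. Myl2 fell from 4298 ± 485 to 1885 ± 88.4 RPKM and Tnni3 from 3321 ± 333 to 1495 ± 153 (SD, n = 4 each). Tnnt2 rose from 3647 ± 385 to 5373 ± 427 RPKM. Of the 5 blood markers none rose or fell, and 3 were lower after centring. The 5 epicardial markers summed to 3.10 to 4.82 and 2.59 to 4.60 RPKM. No marker of these lists was at 0 in all libraries. AAV-Cre library 4 was the highest for Tgfb2, Smad7, Fstl1 and many other members, among them Tgfb1, Tgfb3 and Bmpr1a. For Smad4, Tgfbr2 and Bmp6 it was not. That library was also the highest for the fibroblast sum, at 2322 RPKM, and for the macrophage sum, at 473 RPKM. The part of these cells in the levels of the pathway genes was not tested. Without the library of most Myl7 in each group, 22 of the 27 members then tested rose and none fell. Of all 15469 genes then tested, 9496 rose and 1261 fell. No call among those 27 members changed.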

How the data were processed

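Poly(A)-enriched RNA of mouse ventricles was sequenced in read pairs, per the labels' protocols, which name 2 library kits. The authors deposited RPKM values, with reads scaled by gene length and library total. The build mm10 and the tools STAR, edgeR, Partek 6.6 and FastQC 0.11 are named per the submitters' processing notes. What each was used for, and whether counting used strand, is not given in the sources used here. Each of the 8 columns names a group but no sample title and served as a library of that group. The deposited group averages equalled the column means to within 3.64e-12 RPKM, and no value above 0 recurred between libraries.

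Depth was taken from steps of low RPKM values in genes with a single transcript in GENCODE M21. Multiplied by transcript length, 97.9 to 98.7% were whole multiples of a step, within 0.1. Of these 72.8 to 77.6% were even, so totals appear to count single reads of pairs. No count model was fitted, since the length used for a gene with several transcripts is not known.

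The test was that of limma 3.58.1 in R 4.3.3 (eBayes with a trend) on log2(RPKM + 0.5), for the 16385 genes that reached 1 RPKM in 4 libraries or more, with Benjamini-Hochberg adjustment over them and 0.05 as threshold. On this scale the change of a low gene is understated. The 9 members below that filter and 6 ratios were compared by two-sided exact permutation over 70 arrangements. Those 9 members were compared as deposited only, and their p-values were not adjusted for the number of members compared. Centring subtracted each library's median log2 value. The fit was tested on simulated data. Alternatives were pseudocounts of 0.1 and 1, no filter, a mean of at least 5 RPKM, centring, quantile normalization, rescaling after removal of haemoglobin and mitochondrial genes, a robust prior, library quality weights and leaving out each library. Leaving out the 2 libraries of most Myl7 was added after seeing the data. Members, lists and tests were chosen with earlier results of these data known. All members are accounted for. Values in every library are given for members called on both scales, or lower after centring, for Tgfb1, and for low members where stated. Of each other list, up to 3 called genes of smallest p are named, and Ltbp1, Itgb6, Hfe2 and Id1 were named after their values were seen. Positions and shared exon bases come from GENCODE M21 (GRCm38, the assembly of mm10), sequences from RefSeq GRCm38.p6. Tables and figures were made in Python 3.11.15 (matplotlib 3.10.9, numpy 2.4.6, pandas 2.3.3).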

Additional observations from a re-analysis of the deposited data

Results flagged for a closer look

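Among the 75 gene and group combinations examined, chance alone would flag about 1 in 20. A single value stood apart from the other libraries of its group. In AAV-Cre library 4 the level of Tgfb2 was 9.35 RPKM, while the other 3 AAV-Cre libraries lay between 6.53 and 6.99 RPKM. That library also had the highest summed level of fibroblast markers, and the highest AAV-Cre level of many other members, among them Tgfb1 and Tgfb3. The part of fibroblasts in the value was not tested.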

How the results depend on the processing

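No paired analysis was possible because the columns carry no sample title or number that links a library of one group to a library of the other. Scaling moved the counts most. After centring, 14 members were higher and 3 lower, of other pathway genes 34 and 7, and of all genes 3578 and 3949. After quantile normalization the counts were 14 and 3, 36 and 6, and 3810 and 3838. Without mitochondrial and haemoglobin genes, 6243 of 17545 genes were higher and 2674 lower, and of the members 19 and 0. With a mean of at least 5 RPKM, 6607 genes were higher, as fewer genes were tested. With no filter, 27 of 38 members were higher and none lower, where 12011 of 36512 genes were higher and 1479 lower. Those 36512 include genes of very low values, so this share cannot be set against that of the 16385 genes.

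Centring and quantile normalization reversed Tgfbr3 (-0.23 and -0.23), Acvr1b (-0.23 and -0.24), Acvr2a (-0.27 and -0.29), Acvrl1 (-0.10 and -0.10), Smad1 (-0.30 and -0.30) and Smad5 (-0.10 and -0.10). Without mitochondrial and haemoglobin genes Tgfbr3 was at -0.078, Acvr1b at -0.076, Acvr2a at -0.11 and Smad1 at -0.14. Mstn, too low for the fit, was at -0.030 without AAV-Cre library 3 and at up to 0.14 without others. Tgfb2, Tgfb3, Bmp6, Bmp7, Tgfbr2, Bmpr1a, Acvr1, Smad4, Smad6, Smad7, Fstl1, Fstl3, Skil and Tgif1 were higher and passed under each alternative in which they were tested. Bmp7 and Inhba were not tested when an AAV-Cre library was left out, since the filter needs 4 libraries.

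Leaving out each library gave 22 to 24 members higher and none lower. Of other pathway genes 45 to 56 were higher and 1 to 2 lower. The count lower was 1 without AAV-Luc library 1 or 2, and 1 without the libraries of most Myl7. Of all 15709 to 16290 genes tested when 1 library was left out, 9315 to 10352 were higher and 1267 to 1530 lower. The Tgfb3 share then differed by 28.0 to 30.3 percentage points, the follistatin ratio by 1.36 to 1.60, the inhibitory SMAD ratio by 0.43 to 0.65, Acvr2a to Acvr2b by 0.22 to 0.39 and Bmpr1a to Bmpr2 by 0.34 to 0.40. Members under 1 RPKM rest on few reads. With all 8 libraries the groups overlapped for Bmp2, Mstn, Gdf11 and Fst, and no difference was detected. Without AAV-Cre library 1, Bmp2 differed by 0.26 and Fst by 0.23 on the log2 scale (exact permutation p = 0.0286 each, not adjusted). That is the smallest p possible with 3 against 4 libraries. The median over all genes tested was then 0.40, on a scale that understates changes of low genes.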
